A study of Homo sapiens and Mus musculus with 13 samples.

Results

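RNA-Seq of MDA-MB-231, a human triple-negative breast cancer cell line with a mesenchymal phenotype, was used to compare 2 double knockdown (DKD) lines with 1 Control line. These 3 libraries were taken from 13 in the series and from 7 of this cell line. The Control line was given a guide RNA against GFP. DKD1 was given TRIM11 guide 1 together with KDM5C guide 2, and DKD2 was given TRIM11 guide 2 together with the same KDM5C guide 2. The other 4 lines, used here only for comparison, were TRIM11-KD1 and TRIM11-KD2 (TRIM11 guides 1 and 2) and KDM5C-KD1 and KDM5C-KD2 (KDM5C guides 1 and 2). All lines came from lentiviral delivery of Cas9 with the guide and puromycin selection, so every line, Control included, carried Cas9. The sources used here do not say whether a line was a single clone or a pool, and each line had 1 library. Expression is given in FPKM, the number of fragments scaled by transcript length and by the mapped fragments of the library.

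KDM5C is a histone demethylase that removes methyl groups from lysine 4 of histone H3, a mark of active promoters. TRIM11 is a ubiquitin E3 ligase of the tripartite motif family. The study examined whether TRIM11 acts on gene expression through KDM5C, and the DKD lines are those in which both genes were targeted.

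The analysis covered 11732 of 24523 gene symbols, those whose average over Control, DKD1 and DKD2 reached 1 FPKM. Genes were selected when both DKD lines were at least 2-fold above Control, or both at least 2-fold below it. This gave 229 higher genes, 1.95% of those analysed, and 161 lower genes, 1.37%, or 390 in all. With 1 Control library and 1 library a line, the ratios to Control have no replicate check and carry no p-value. A line with fewer cells expressing a gene and a line with less of its RNA in each cell cannot be told apart in these bulk libraries.

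The target genes were inspected first. KDM5C (chromosome X of hg19, 53205465 to 53254604) was at 30.3 FPKM in Control, 18.8 in DKD1 and 22.7 in DKD2. It was at 29.8 and 28.4 FPKM in the TRIM11-KD lines and at 20.6 and 21.4 FPKM in the KDM5C-KD lines. Thus KDM5C mRNA was below Control in all 4 lines given a KDM5C guide, and in the DKD lines the ratio to Control was 0.622 and 0.749. TRIM11 (chromosome 1, 228581374 to 228594536) was at 12.6 FPKM in Control, 16.1 in the library labelled DKD1 and 9.38 in the library labelled DKD2. The TRIM11-KD lines were at 13.4 and 10.6 FPKM, and the KDM5C-KD lines at 13.6 and 14.2 FPKM. TRIM11 mRNA was therefore above Control with guide 1 and below it with guide 2. Cas9 cuts need not lower an mRNA, and protein levels were not analysed here, so for TRIM11 the mRNA does not check the label.

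The cell line markers fixed for this work were present in every library except SPARC. VIM, the mesenchymal intermediate filament gene, was at 1038 FPKM in Control, 1179 in DKD1 and 1309 in DKD2. SPARC was at 0.612, 0.528 and 0.265 FPKM in the same libraries. ESR1 and PGR, the estrogen and progesterone receptor genes that this line lacks, were at 0 in all 3. The 8 luminal breast markers, expected absent, summed to 27.4 FPKM in Control, 29.4 in DKD1 and 31.3 in DKD2. This sum hides members that moved in opposite directions. TFF1 was at 13.3, 3.87 and 1.76 FPKM and EPCAM at 4.03, 12.3 and 12.02 FPKM. GATA3 was at 4.58, 8.92 and 8.07 FPKM and ERBB3 at 4.44, 3.66 and 7.87 FPKM. The 3 endothelial markers summed to 0.812, 0.154 and 0.798 FPKM.

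Most selected genes were expressed at a low level. The median mean FPKM was 3.15 for the higher genes and 3.60 for the lower genes, against 12.6 for all genes analysed. In the higher group 76 genes and in the lower group 63 genes had a mean FPKM of at least 5. The read numbers behind such low values are unknown. For 8 higher genes the Control value was listed at 0, and for 6 lower genes a DKD value was listed at 0, so those genes have no ratio in at least 1 line. The median absolute difference between DKD1 and DKD2 over all genes was 0.21 on the log2 scale, and for 1 gene in 10 it was over 0.70.

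The lines were not alike in the size of the difference. DKD1 alone was at least 2-fold above Control for 387 genes (3.30%) and below it for 274 (2.34%), whereas DKD2 alone was above for 487 (4.15%) and below for 526 (4.48%). Among selected genes with a ratio in both lines, DKD2 was further from Control for 140 of 221 higher and 111 of 155 lower genes. Of the 11732 genes analysed, 20 were at least 2-fold above Control in DKD1 and at least 2-fold below it in DKD2. Another 5 were the reverse. Both ratios divide by the same Control library, so nothing is read from these counts.

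**Figure D1:**
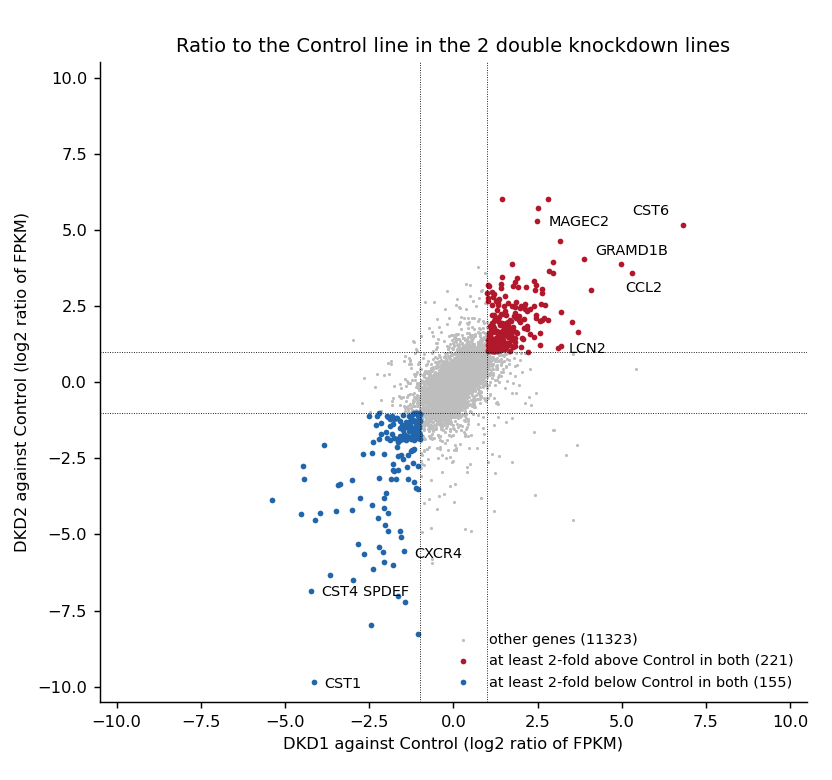
Log2 ratio of FPKM to Control in DKD1 (x axis) and in DKD2 (y axis) for each analysed gene with a value above 0 in all 3 libraries, where dotted lines mark a 2-fold difference. The 221 higher (red) and 155 lower (blue) genes with a ratio in both lines are coloured, and both axes divide by the same Control library.

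The genes nearest the limit show how sharp the selection was. CST7 was the higher gene closest to 2-fold, with 4.66 FPKM in Control, 21.4 in DKD1 and 9.33 in DKD2. THBS1, which encodes the matrix glycoprotein thrombospondin 1, missed it by a ratio of 1.997 in DKD1, with 565 FPKM in Control, 1128 in DKD1 and 1177 in DKD2. On the lower side SPTLC3 was just inside, at 8.63 FPKM in Control, 4.32 in DKD1 and 3.57 in DKD2, and TMEM150A was just outside, at 9.56, 4.83 and 4.45 FPKM.

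Promoter sequence was available from RefSeq (GRCh38.p14) as a single window of 250 bases upstream of the start site for 6040 of the analysed genes, 99 higher and 73 lower genes among them. Short motifs were searched on both strands. The TATA box TATAAA was found in 4.45% of all windows, in 13 of 99 (13.1%) of the higher genes and in 11 of 73 (15.1%) of the lower genes. The ETS motif CGGAAG was in 31.7% of all windows, in 10 (10.1%) of the higher genes and in 13 (17.8%) of the lower genes. Windows with a TATA box were thus more frequent, and windows with the ETS motif less frequent, in both groups than in all genes. GGGCGG, the SP1 box, was in 72.2% of all windows, 66.7% of the higher and 54.8% of the lower genes, and the median number of CG pairs was 22, 20 and 16. The AP-1 motif TGANTCA was in 3.74% of all windows, 6 (6.06%) of the higher genes and 6 (8.22%) of the lower genes. The antioxidant response element core TGACNNNGC was in 12.9% of all windows, 14 (14.1%) of the higher genes and 5 (6.85%) of the lower genes. No test was made of these shares, and a match is a description of the letters, not a site of binding.

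The windows of 4 genes are shown because they belong to genes described here and hold a TATA box, an AP-1 motif or an antioxidant response element core, which are in capitals. GCLM (chr1:93909431-93909680, minus strand) has the antioxidant core at -34 from the start site. LCN2 (chr9:128149203-128149452, plus strand) has an AP-1 motif at -52 and IL11 (chr19:55370464-55370713, minus strand) has one at -96. IGFBP4 (chr17:40443200-40443449, plus strand) has a TATA box at -29. Positions are those of the first base of the match, and GCLM and LCN2 were higher in DKD whereas IL11 and IGFBP4 were lower.
GCLM: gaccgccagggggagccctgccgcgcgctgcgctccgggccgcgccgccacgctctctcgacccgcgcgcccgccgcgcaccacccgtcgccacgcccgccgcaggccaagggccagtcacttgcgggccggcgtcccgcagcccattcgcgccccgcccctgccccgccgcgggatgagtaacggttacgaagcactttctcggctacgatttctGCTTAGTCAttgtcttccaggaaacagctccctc
LCN2: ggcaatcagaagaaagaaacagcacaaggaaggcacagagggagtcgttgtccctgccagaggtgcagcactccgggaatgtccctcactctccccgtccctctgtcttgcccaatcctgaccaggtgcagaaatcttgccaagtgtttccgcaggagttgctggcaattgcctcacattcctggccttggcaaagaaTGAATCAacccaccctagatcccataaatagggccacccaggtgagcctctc
IL11: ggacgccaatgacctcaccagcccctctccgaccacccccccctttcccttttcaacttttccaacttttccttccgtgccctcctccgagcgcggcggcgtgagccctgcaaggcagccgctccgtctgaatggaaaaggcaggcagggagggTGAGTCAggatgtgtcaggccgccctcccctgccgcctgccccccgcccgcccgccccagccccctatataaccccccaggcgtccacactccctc
IGFBP4: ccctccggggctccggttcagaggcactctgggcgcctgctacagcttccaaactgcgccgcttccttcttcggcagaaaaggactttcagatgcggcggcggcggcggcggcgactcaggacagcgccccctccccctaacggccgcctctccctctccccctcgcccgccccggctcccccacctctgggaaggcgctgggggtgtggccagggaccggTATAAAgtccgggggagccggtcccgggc

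Cystatins, secreted inhibitors of cysteine proteases, differed from Control in both directions. Of 7 analysed cystatin genes, 4 were lower (CST1, CST2, CST3 and CST4), 2 were higher (CST6 and CST7) and CSTB was neither. Among all genes 1.37% were lower and 1.95% higher. The cystatin median of the mean log2 ratio was -1.60 against -0.01 for all genes. The 4 lower genes are neighbours on chromosome 20 of hg19 between 23607343 and 23807366. CST1 was at 1379.9 FPKM in Control, 77.7 in DKD1 and 1.49 in DKD2, which is 17.8-fold and 925-fold below Control. CST4 was at 416, 22.03 and 3.60 FPKM in the same libraries, and CST2 at 49.9, 3.18 and 2.53 FPKM. CST3, which encodes the widely expressed cystatin C, was at 622, 239 and 176 FPKM. All 4 genes were below Control in every knockdown line, with CST1 at 575 and 37.01 FPKM in TRIM11-KD and at 58.5 and 0.907 FPKM in KDM5C-KD, so DKD did not stand outside the single knockdown lines. CST1, CST2 and CST4 have near-identical coding sequences, and reads may have been split among them.

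CST6, which encodes cystatin E/M and lies on chromosome 11, was furthest above Control among the selected genes whose mean was 5 FPKM or more and that had no value of 0, with small RNAs and the other classes named in the ranking rule left out. It was at 0.520 FPKM in Control, 58.4 in DKD1 and 18.4 in DKD2. The TRIM11-KD lines were at 7.07 and 9.09 FPKM, whereas KDM5C-KD1 was at 23.6 and KDM5C-KD2 at 0.709 FPKM. The 2 KDM5C-KD lines were thus far apart for CST6, and its DKD values lay on both sides of KDM5C-KD1.

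**Figure D2:**
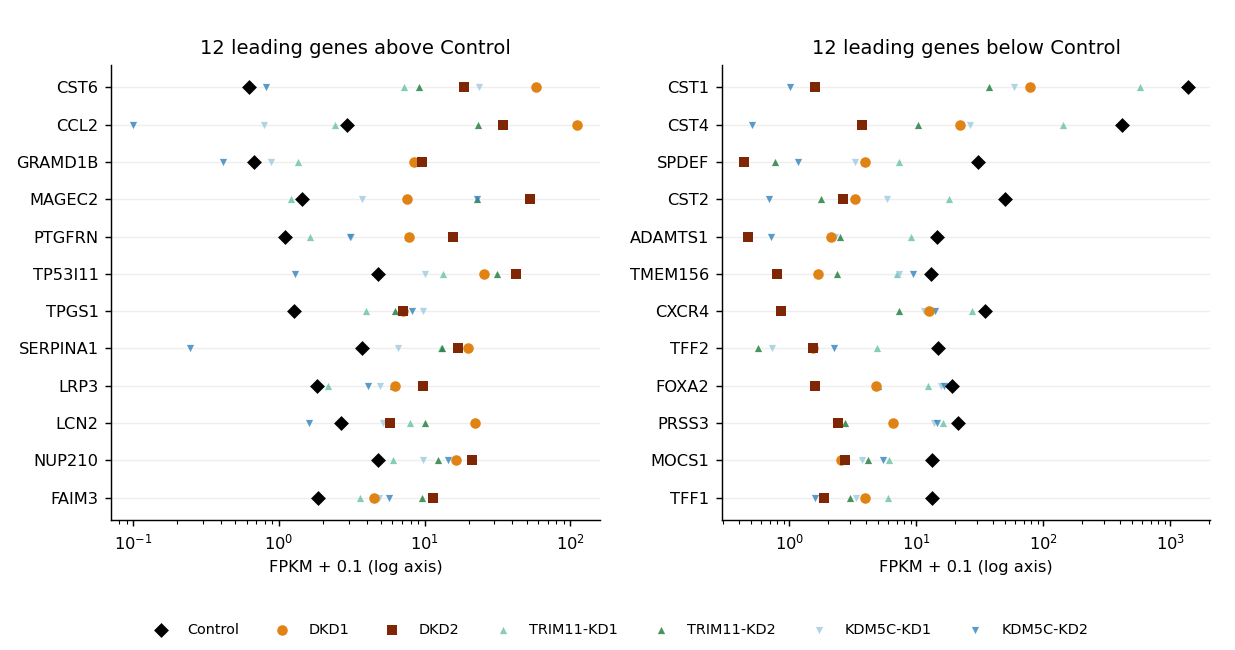
FPKM + 0.1 on a log axis in all 7 libraries for the 12 genes furthest above Control (left) and the 12 furthest below (right) whose mean was 5 FPKM or more and that had no value of 0, with small RNAs, ribosomal protein genes, uncharacterised loci and pseudogenes left out. Large symbols are Control (black), DKD1 and DKD2, and small triangles are the single knockdown lines. CST1 spanned from 0.907 to 1379.9 FPKM.

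SPDEF, FOXA2, TFF1 and TFF2 were among the 12 leading lower genes. SPDEF, an ETS transcription factor of goblet cells, was at 30.3 FPKM in Control, 3.80 in DKD1 and 0.339 in DKD2. FOXA2, a forkhead factor of endoderm-derived epithelium, was at 18.8, 4.74 and 1.497 FPKM. The trefoil factor genes, whose products are secreted with mucins, lie side by side on chromosome 21 between 43731777 and 43786644. TFF1 was at 13.3, 3.87 and 1.76 FPKM, and TFF2 at 14.7, 1.43 and 1.44 FPKM. TFF3 (9.96, 0.786 and 0.123 FPKM) and AGR2 (6.52, 2.49 and 0 FPKM), a disulfide isomerase of the secretory pathway, were noticed after their values were seen. SPDEF and the trefoil genes were also below Control in all single knockdown lines, whereas FOXA2 was at 12.2 and 4.87 FPKM in TRIM11-KD and at 15.7 and 16.2 FPKM in KDM5C-KD, above both DKD lines.

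Genes of epithelial and mesenchymal identity were otherwise divided. Of 23 epithelial genes, 2 were higher (EPCAM and CLDN1) and 2 lower (SPDEF and KRT17), beside 1.95% higher and 1.37% lower of all genes. The epithelial median of the mean log2 ratio was 0.07. EPCAM, an epithelial adhesion molecule, was at 4.03 FPKM in Control, 12.3 in DKD1 and 12.02 in DKD2. CLDN1, a tight junction claudin, was at 3.22, 7.21 and 6.55 FPKM, and KRT17, a basal keratin, at 8.16, 1.56 and 2.11 FPKM. KDM5C-KD1 and KDM5C-KD2 had EPCAM at 10.3 and 12.1 FPKM, close to DKD, and TRIM11-KD had 4.999 and 6.77 FPKM. None of 17 mesenchymal genes was at least 2-fold from Control in both lines, beside 1.95% higher and 1.37% lower of all genes. The mesenchymal median was -0.09 (0.04 in DKD1 and -0.05 in DKD2).

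Chemokines, secreted attractants of leukocytes, had a median mean log2 ratio of 0.79, which rested on DKD1, since the list median was 1.93 in DKD1 and 0.24 in DKD2. Of 11 analysed, CCL2, CX3CL1, CCL28 and CXCL14 were higher and CCL26 was lower, beside 1.95% higher and 1.37% lower of all genes. CCL2, the attractant of monocytes, was at 2.82 FPKM in Control, 112 in DKD1 and 34.2 in DKD2. Its level was 2.32 and 23.1 FPKM in TRIM11-KD and 0.684 and 0 FPKM in KDM5C-KD, so both DKD lines were above all 4. CX3CL1 was at 0.951, 4.09 and 3.98 FPKM, and CCL28 at 0.949, 2.86 and 2.80 FPKM. CXCL14 was listed at 0 in Control and was at 0.763 and 2.44 FPKM in DKD. CCL26, a ligand of the eotaxin receptor, was at 4.84 FPKM in Control, 1.32 in DKD1 and 1.29 in DKD2, and between 3.02 and 6.68 FPKM in the single knockdown lines. The DKD lines were therefore near each other for CCL26, CCL28 and CX3CL1 and further apart for CCL2 and CXCL14.

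The neutrophil-attracting chemokines instead lay on opposite sides of Control in the 2 lines. CXCL8 was at 32.8 FPKM in Control, 110.1 in DKD1 and 14.4 in DKD2. CXCL1 was at 4.82, 37.5 and 1.63 FPKM, and CXCL2 at 18.4, 91.8 and 11.01 FPKM. CCL5, a chemokine of T cells, was arranged the other way, at 7.04 FPKM in Control, 3.59 in DKD1 and 20.3 in DKD2. For these 4 genes DKD1 and DKD2 gave different answers, and no direction can be stated for DKD as a group.

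Among the chemokine receptors, CXCR4 was at 34.6 FPKM in Control, 12.5 in DKD1 and 0.751 in DKD2, and at 27.2, 7.21, 11.3 and 13.9 FPKM in the TRIM11-KD and KDM5C-KD lines. ACKR3, the atypical receptor that shares the ligand CXCL12 with CXCR4, was at 1.99 FPKM in Control, 5.15 in DKD1 and 4.64 in DKD2. ACKR3 was chosen after its values were seen. Both receptors were thus outside the 2-fold range in both DKD lines, in opposite directions.

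Of 13 interleukins and colony stimulating factors, only IL11 was selected, on the lower side, beside 1.95% higher and 1.37% lower of all genes. IL11, a cytokine of the IL-6 family, was at 117 FPKM in Control, 54.1 in DKD1 and 36.2 in DKD2. Its window with an AP-1 motif is shown above. The single knockdown lines were between 72.0 and 128 FPKM, all above both DKD lines. IL6 itself was at 113 FPKM in Control, 116 in DKD1 and 83.1 in DKD2. CSF2 was on opposite sides of Control, at 27.2, 79.7 and 10.98 FPKM.

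HLA class II genes, which encode the chains that present peptides to helper T cells, were higher together. Of 24 antigen presentation genes, HLA-DRA, HLA-DRB1, HLA-DPA1 and HLA-DPB1 were the 4 at least 2-fold above Control in both lines, and none was below. Among all genes 1.95% were higher and 1.37% lower. The median of the list was 0.12 (0.21 in DKD1 and 0.01 in DKD2). HLA-DPA1 was at 3.91 FPKM in Control, 16.8 in DKD1 and 13.4 in DKD2, and HLA-DRA was at 2.80, 9.05 and 5.68 FPKM. HLA-DRB1 was at 0.322, 1.98 and 1.33 FPKM, and HLA-DPB1 at 0.276, 1.82 and 1.61 FPKM. For all 4 genes both DKD lines were above all 4 single knockdown lines, in which HLA-DPA1 ranged from 1.13 to 5.57 FPKM. CIITA, the class II transactivator, was at 0.698 FPKM in Control, 1.24 in DKD1 and 1.37 in DKD2, and CD74, the invariant chain, at 139, 238 and 210.0 FPKM, which is above Control but under 2-fold. Class I genes did not reach 2-fold, with HLA-B at 159, 215 and 189.8 FPKM. HLA-DRA, HLA-DRB1, HLA-DPA1 and HLA-DPB1 lie between 32407655 and 33057473 on chromosome 6 of hg19, and as HLA genes are polymorphic and have paralogs, their reads may be split or lost.

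Since class II genes are also expressed by leukocytes, leukocyte markers were set beside them. The summed level of 5 leukocyte markers was 2.37 FPKM in Control, 5.41 in DKD1 and 4.91 in DKD2, and between 1.54 and 2.71 FPKM in the single knockdown lines. CD14 made up most of it, with 1.44 FPKM in Control, 5.24 in DKD1 and 4.53 in DKD2, and was itself one of the 229 higher genes. CD3E was at 0, 0 and 0.0401 FPKM, and PTPRC, the pan-leukocyte CD45 gene, at 0.235, 0.0781 and 0.223 FPKM. CD3E and PTPRC, defining markers of T cells and of all leukocytes, were thus at or near 0.

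Of 35 interferon response genes analysed, MX1 alone was at least 2-fold from Control in both lines, beside 1.95% higher and 1.37% lower of all genes. MX1 was at 4.62 FPKM in Control, 9.90 in DKD1 and 11.5 in DKD2. ISG15 was at 196, 91.98 and 245 FPKM. The median of the list was -0.33 in DKD1 and 0.21 in DKD2, on opposite sides of Control.

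**Figure D3:**
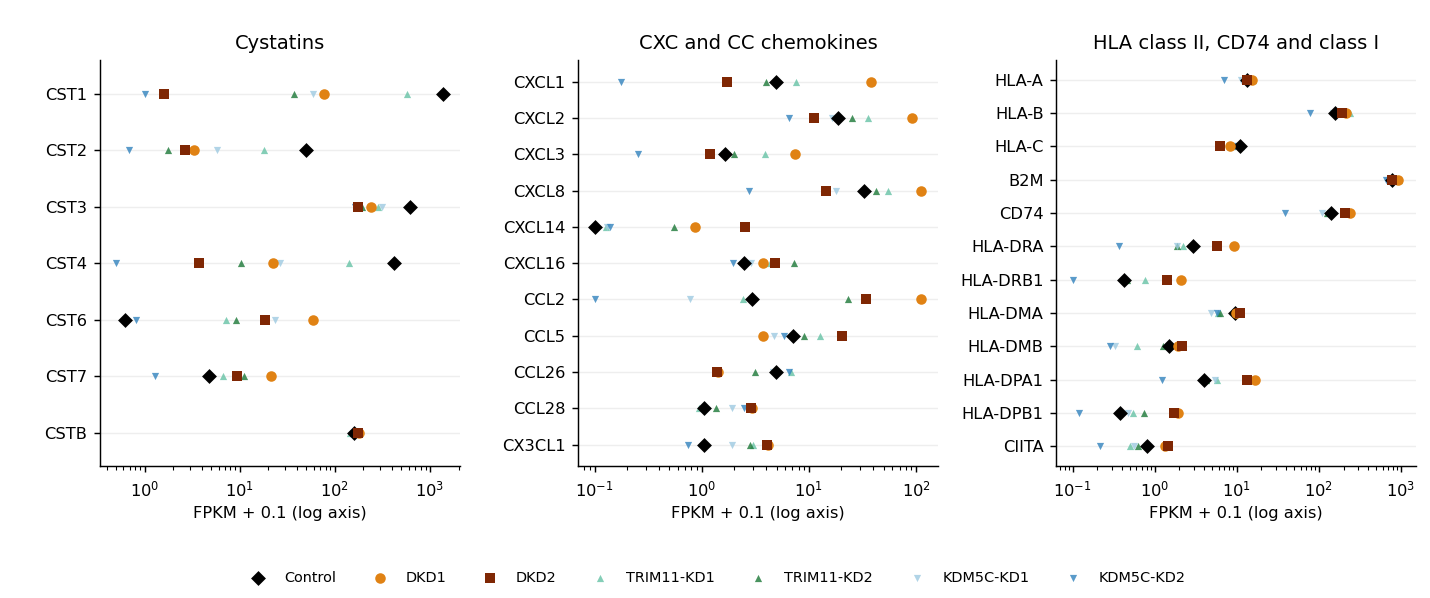
FPKM + 0.1 on a log axis in all 7 libraries for the analysed cystatin genes (left), chemokine genes (middle), and HLA class II, class I and partner genes (right). In the right panel the 2 DKD symbols lie to the right of all others for HLA-DRA, HLA-DRB1, HLA-DPA1 and HLA-DPB1, and in the middle panel CXCL1, CXCL2 and CXCL8 have DKD1 and DKD2 on opposite sides of Control.

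Genes of the extracellular matrix and its proteolysis were mostly lower where they were selected, and of all genes 1.95% were higher and 1.37% lower. TIMP1, an inhibitor of matrix metalloproteinases, was at 513 FPKM in Control, 198 in DKD1 and 186 in DKD2, below all single knockdown lines (211 to 414 FPKM). Of 10 genes in this list MMP24 alone was higher, at 2.95, 9.05 and 9.64 FPKM, and MMP1, the interstitial collagenase, was at 14.9, 34.1 and 0.797 FPKM. PLAT, which encodes tissue plasminogen activator, was at 176, 87.8 and 48.4 FPKM, and F2RL2, a protease-activated receptor, at 6.01, 1.56 and 2.73 FPKM. The other 10 genes of the plasminogen list were not selected, and PLAT and F2RL2 were low in some single knockdown lines too (15.4 FPKM for PLAT in KDM5C-KD2). ADAMTS1, a secreted metalloproteinase, was at 14.5 FPKM in Control, 2.04 in DKD1 and 0.369 in DKD2.

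Among 17 collagen genes COL4A5 and COL11A1 were lower. COL11A1, a fibrillar collagen gene, was at 6.26 FPKM in Control, 0.148 in DKD1 and 0.426 in DKD2, but ranged from 1.001 to 26.3 FPKM in the single knockdown lines. COL4A5 was at 6.62, 3.19 and 0.974 FPKM, below the 3.61 to 7.58 FPKM of those lines. In the list of 16 matrix glycoproteins and laminins FBLN1, which encodes fibulin 1, was higher (1.01, 2.40 and 4.27 FPKM). No member of the lists of integrins (12 analysed), adhesion molecules (19) or semaphorins and their receptors (23) was at least 2-fold from Control in both lines. Of all genes 1.95% were higher and 1.37% lower, so lists of this size may hold none, and nothing is read from this.

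Growth factor and Notch genes gave a few differences, beside 1.95% higher and 1.37% lower of all genes. VEGFA, the vascular endothelial growth factor, was at 81.3 FPKM in Control, 38.8 in DKD1 and 37.3 in DKD2, with 44.9 to 67.2 FPKM in the single knockdown lines. FGF5 was at 11.2, 3.15 and 3.47 FPKM, and these were the only members of a list of 16 growth factors and receptors that were selected. Both DKD lines were below all 4 single knockdown lines for each of these genes. In the Notch pathway, with 19 genes analysed, the ligand gene JAG1 was lower (26.6 FPKM in Control, 8.43 in DKD1 and 4.95 in DKD2). The ligand gene JAG2 was at 1.62, 3.95 and 3.31 FPKM and NRARP, a feedback inhibitor induced by Notch, at 1.34, 3.92 and 2.97 FPKM. The ligands JAG1 and JAG2 were thus on opposite sides of Control in both lines. HES1, a classical Notch target, was at 35.2, 52.6 and 51.3 FPKM, and none of the 8 EGF ligand and ERBB receptor genes was selected.

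EGR1 and DUSP6 were the lower genes among 22 AP-1 and early response factors, beside 1.37% lower of all genes. EGR1, a zinc finger factor induced by growth factor signalling, was at 86.6 FPKM in Control, 21.8 in DKD1 and 27.9 in DKD2, and at 77.4, 62.2, 49.6 and 157 FPKM in the TRIM11-KD and KDM5C-KD lines. DUSP6, a phosphatase of the ERK kinases, was at 87.6, 37.1 and 25.9 FPKM. The other 20 genes of this list were not selected, and FOSL1, the most abundant of them, was at 225, 349 and 318 FPKM. EGR1 was below every single knockdown line in both DKD lines, whereas DUSP6 in TRIM11-KD2 (33.7 FPKM) lay between them.

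Genes controlled by NRF2, the transcription factor of the antioxidant response, were mostly above Control. Of 20 analysed, NQO1, GCLM and ABCC3 were at least 2-fold higher in both lines, against 1.95% of all genes. By any amount, 15 were above Control in both lines, against 36.0% of all genes, and none was below it in both, against 36.9%. The median mean log2 ratio was 0.43. NQO1, a quinone reductase, was at 29.2 FPKM in Control, 90.5 in DKD1 and 115 in DKD2. GCLM, the modifier subunit of the enzyme that starts glutathione synthesis, was at 11.3, 22.9 and 23.7 FPKM, and its antioxidant core is shown above. ABCC3, a transporter of organic anions, was at 5.88, 16.9 and 13.6 FPKM. The TRIM11-KD lines were above Control for these genes as well, with NQO1 at 47.4 and 92.01 FPKM, and so was KDM5C-KD1, with NQO1 at 66.2 FPKM. KDM5C-KD2 was above Control for NQO1 (34.6 FPKM) and ABCC3 (8.43 FPKM). Control was thus the lowest library for NQO1 and ABCC3.

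Aldo-keto reductases, several of which NRF2 also controls, had a median of 0.57 over 8 genes, with 0.28 in DKD1 and 0.75 in DKD2. AKR1C3, which reduces steroids and prostaglandins, was at 29.5 FPKM in Control, 77.6 in DKD1 and 85.6 in DKD2. It was at 78.9 and 89.4 FPKM in TRIM11-KD but at 29.2 and 0.435 FPKM in KDM5C-KD. For AKR1C3 the DKD lines were thus near the TRIM11-KD lines and above the KDM5C-KD lines. AKR1C1, a close paralog, was at 11.5, 12.5 and 20.1 FPKM.

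Of 20 ATF4 stress response genes analysed, 2 were lower and 0 higher, beside 1.37% lower and 1.95% higher of all genes. CHAC1, a glutathione-degrading enzyme induced by ATF4, was at 8.78 FPKM in Control, 2.98 in DKD1 and 1.67 in DKD2. NUPR1, a stress-induced chromatin protein, was at 10.2, 3.42 and 3.01 FPKM, and was at 10.1, 3.70, 10.8 and 21.3 FPKM in the TRIM11-KD and KDM5C-KD lines. ATF4 itself was at 145, 163 and 151 FPKM, and the other 18 analysed genes of the list were not selected. Of 20 p53 target genes TP53I11 alone was selected, beside 1.95% higher and 1.37% lower of all genes. TP53I11 was at 4.65, 25.4 and 42.0 FPKM. CDKN1A, the inhibitor of cyclin-dependent kinases, was at 64.1, 47.6 and 102 FPKM, on both sides of Control.

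In the cell cycle list CCNE1, which encodes cyclin E1 of the G1 to S transition, was the only selected gene of 39. Of all genes 1.95% were higher and 1.37% lower. CCNE1 was at 3.50 FPKM in Control, 7.64 in DKD1 and 12.3 in DKD2. By any amount, 26 of the 39 genes were above Control in both lines, against 36.0% of all genes, and 4 were below it in both, against 36.9%. MCM7, a subunit of the replicative helicase, was at 90.9, 117 and 163 FPKM, and PCNA, the polymerase clamp, at 103, 124 and 171 FPKM. CCND1, cyclin D1, was at 229.7, 177 and 181 FPKM. The differences of this list were small, with a median of 0.22 on the log2 scale.

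**Figure D4:**
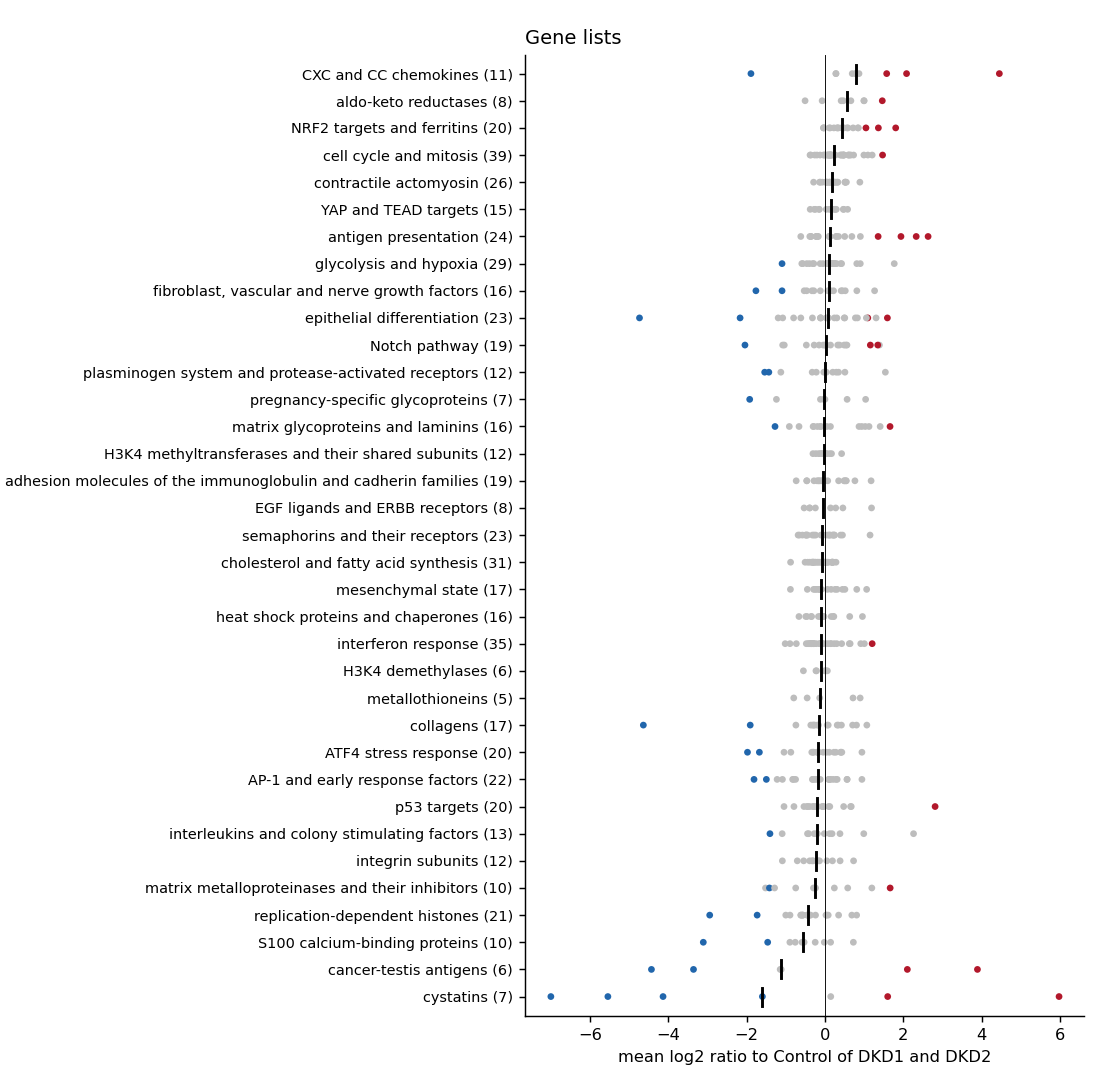
Mean log2 ratio to Control of DKD1 and DKD2 for each gene (points) of the lists with at least 5 analysed genes, given in brackets, where black bars are the list medians. Red and blue points are genes at least 2-fold above or below Control in both lines, the cystatin median is -1.60 (-1.38 in DKD1 and -1.82 in DKD2), the chemokine median is 0.79 (1.93 in DKD1 and 0.24 in DKD2), and CXCL14 has no ratio.

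No gene of the lists of H3K4 demethylases (6 analysed) or H3K4 methyltransferases (12) was at least 2-fold from Control in both lines, KDM5C included. KDM5B, a paralog of KDM5C, was at 12.1, 12.3 and 12.3 FPKM. Contractile actomyosin genes (26), YAP and TEAD targets (15), metallothioneins (5), cholesterol and fatty acid synthesis (31) and chaperones (16) had no selected gene either, and VEGFA was the only selected gene of 29 in the glycolysis and hypoxia list. Over all 586 list genes, 25 were higher and 29 lower, beside 1.95% and 1.37% of all genes analysed. The lists were written with earlier results of these data known, and nothing is read from this count.

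Beyond the lists, the ranking rule named further higher genes. GRAMD1B, a sterol transfer protein, was at 0.572 FPKM in Control, 8.39 in DKD1 and 9.47 in DKD2. PTGFRN, a membrane protein of the immunoglobulin superfamily, was at 0.999, 7.70 and 15.5 FPKM. SERPINA1, alpha-1 antitrypsin, was at 3.60, 19.6 and 16.7 FPKM. These genes were also high in TRIM11-KD2, at 9.24 FPKM for GRAMD1B, 7.53 for PTGFRN and 13.05 for SERPINA1. SERPINA1 was similarly high in TRIM11-KD1 (12.9 FPKM), and was at 6.48 FPKM in KDM5C-KD1 and 0.145 in KDM5C-KD2. PTGFRN was at 1.53 FPKM in TRIM11-KD1 and at 3.01 and 2.96 FPKM in the KDM5C-KD lines. LCN2, which encodes the iron-binding lipocalin 2 and whose AP-1 motif is shown above, was at 2.56, 21.97 and 5.63 FPKM. NUP210, a nuclear pore protein, was at 4.67, 16.4 and 21.1 FPKM and TPGS1, a subunit of a tubulin polyglutamylase, at 1.16, 7.02 and 6.95 FPKM. LRP3 (1.73, 6.17 and 9.56 FPKM) and FAIM3 (1.76, 4.35 and 11.2 FPKM) complete these genes. PTGFRN, SERPINA1, LRP3 and NUP210 were above all 4 single knockdown lines in both DKD lines, and GRAMD1B, LCN2, TPGS1 and FAIM3 were not.

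The ranking rule further named TMEM156 (12.8 FPKM in Control, 1.59 in DKD1 and 0.700 in DKD2), PRSS3, a trypsin with close paralogs (21, 6.41 and 2.30 FPKM), and MOCS1, an enzyme of molybdenum cofactor synthesis (13.1, 2.43 and 2.62 FPKM), among the lower genes. TMEM156 and MOCS1 were below all single knockdown lines in both DKD lines, and PRSS3 was not. The most abundant selected genes, chosen after their values were seen, were on the lower side, where 8 had a mean FPKM of at least 100, against 1 on the higher side. HMGA1, an architectural chromatin protein, was at 1506 FPKM in Control, 734 in DKD1 and 648 in DKD2, and IGFBP4, a binding protein of insulin-like growth factors, at 1016, 414 and 352 FPKM. On the higher side this was CCDC85B, at 57.3, 204 and 131 FPKM. HMGA1 was at 786, 535, 742 and 569.9 FPKM in the single knockdown lines, so its highest value was that of Control.

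Since all comparisons with Control share 1 library, the position of that library matters to each of them. Control was the lowest of all 7 libraries for 145 (63.3%) of the 229 higher genes and the highest for 114 (70.8%) of the 161 lower genes, against 13.4% and 16.5% of all genes. The rule itself places Control beyond both DKD lines, and nothing further is read from these shares. A feature of the Control line and a common effect of the guides cannot be told apart.

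The DKD lines were next compared with the single knockdown lines, which leaves Control out. Both DKD lines were above all 4 single knockdown lines for 1149 genes (9.79%) and for 80 of the 229 higher genes, and below all 4 for 996 genes (8.49%) and for 52 of the 161 lower genes. The DKD values in this count are those that chose the members. A limma fit on log2(FPKM + 1) tested the DKD mean against the mean of TRIM11-KD and KDM5C-KD over all 11732 genes. With 2 lines a group, limma called 0 genes after Benjamini-Hochberg adjustment (lowest adjusted p 0.538). At an unadjusted p under 0.05 there were 1090 genes, 582 higher and 508 lower in DKD. These p-values measure the spread between the lines of a group. Those lines differ in guide, except that both DKD lines had KDM5C guide 2. The guides of the DKD lines were also those of single knockdown lines, so the groups are not independent in guide.

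The selected genes with the lowest unadjusted limma p were named after their values were seen. Their DKD values are those that selected them, so the differences below are a description and no support for the selection. KIRREL3, an adhesion molecule of the immunoglobulin superfamily, was at 0.397 and 0.237 FPKM in DKD, at 3.15 and 3.18 FPKM in TRIM11-KD and at 4.53 and 7.76 FPKM in KDM5C-KD. The difference was -2.03 ± 0.22 (SE, n = 2 against 4 lines, limma adjusted p = 0.538) on the log2 scale. SPOCK1, a matrix proteoglycan, was at 1.07 and 0.320 FPKM in DKD, at 7.17 and 3.47 FPKM in TRIM11-KD and at 12.1 and 22.7 FPKM in KDM5C-KD (difference -2.64 ± 0.36 SE). OPN3, an opsin, was at 6.26 and 8.43 FPKM in DKD and between 14.6 and 29.7 FPKM in the single knockdown lines (-1.30 ± 0.18 SE). These 3 genes were lower in both DKD lines than in every other library, Control included. CD14, next in this order, differed by 1.15 ± 0.17 (SE). HLA-DRA, CCL2 and IL11, described above, were picked from further down the order, past other genes. HLA-DRA differed by 1.81 ± 0.34 (SE), CCL2 by 4.21 ± 0.84 (SE) and IL11 by -1.04 ± 0.22 (SE). The DKD lines were beyond every single knockdown line for CD14 and for each of these. None passed the adjusted threshold in limma.

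**Figure D5:**
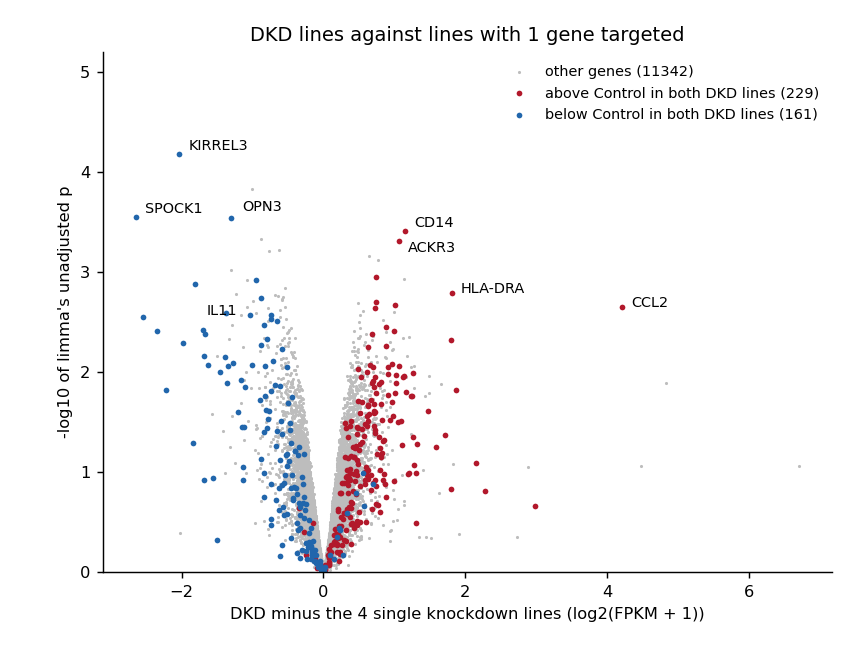
Difference of the DKD lines from the 4 single knockdown lines (x axis, log2(FPKM + 1)) against -log10 of limma's unadjusted p (y axis) for 11732 genes, with the 229 higher (red) and 161 lower (blue) genes coloured. No gene passed after adjustment, and the coloured genes were chosen with the same DKD values.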

How the data were processed

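The authors trimmed paired reads of poly(A) libraries, whose kit does not mark strand, with Cutadapt and FastQC, mapped them to hg19 with HISAT2 and computed the deposited FPKM values with Cufflinks at default settings. The submitters' processing notes also list Bowtie 0.12.2, without a role. FPKM carry no read numbers, so library depth cannot be given, nor a counting error, and antisense or overlapping genes cannot be told apart. The mouse tumor table was not used here.

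Of 26006 rows, 27 whose symbol had become a date were dropped, and the row with the highest mean was kept for each symbol, leaving 24523. Ratios used FPKM without a pseudocount, for a mean FPKM of at least 1 over Control and DKD. The genes, lists and tests were chosen with earlier results of these data known. Named genes are the 2 targets, the 12 with the largest and the 12 with the smallest mean log2 ratio among selected genes (mean FPKM of at least 5, no value of 0, without ribosomal protein genes, small RNAs, uncharacterised loci and pseudogenes), selected list genes, up to 4 abundant list genes and the markers. limma 3.58.1 (R 4.3.3, lmFit, eBayes with trend, tested on simulated data) compared DKD with the single knockdown lines, without Control. Positions of 351 of 390 genes come from an hg19 annotation. Python 3.11.15, numpy 2.4.6, pandas 2.3.3 and matplotlib 3.10.9 were used. Alternatives were folds of 1.5 and 4, other FPKM limits, pseudocounts and scalings, the DKD mean, summed rows (added after seeing the data), eBayes without trend, a replicate block, Control in the fit and each line left out. Some list and marker genes are not reported here.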

Additional observations from a re-analysis of the deposited data

Results flagged for a closer look

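The following 5 results were noted because DKD1 and DKD2, which differ in the TRIM11 guide, lay on opposite sides of Control. Lists were noted only with at least 5 analysed genes and medians far enough apart. Other lists also had medians on opposite sides of Control. Examples are matrix metalloproteinases and their inhibitors (0.15 in DKD1 and -0.32 in DKD2) and HOX genes (0.03 and -0.86, 3 analysed). With 1 library a line, the differences between the lines were not tested. For TRIM11 itself the log2 ratio to Control was 0.36 in DKD1 and -0.43 in DKD2, a difference of -0.78. The median log2 ratio of interleukins and colony stimulating factors was 0.40 in DKD1 and -0.58 in DKD2, a difference of -0.98. For collagens it was 0.18 and -0.32, a difference of -0.51. For the interferon response it was -0.33 and 0.21, a difference of 0.54. For pregnancy-specific glycoproteins it was -0.75 and 0.57, a difference of 1.32, with PSG5 at 27.4 FPKM in Control, 25.3 in DKD1 and 65.0 in DKD2.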

How the results depend on the processing

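The counts of genes at least 2-fold from Control in both DKD lines, 229 higher and 161 lower, became 584 and 473 at 1.5-fold, 42 and 38 at 4-fold, 76 and 63 at a mean FPKM of at least 5, and 887 and 1217 with no limit on the mean. They were 83 and 104 with a pseudocount of 1, and 417 and 278 with the mean of both lines. Without 1 of the DKD lines they ranged from 387 to 487 higher (487 without DKD1) and from 274 to 526 lower (526 without DKD1). A pseudocount of 0.1, median-ratio or total FPKM scaling and summed rows kept both counts within 1.5 times, and scaling moved the median of all genes by less than 0.01 on the log2 scale. The limma comparison with the single knockdown lines gave 0 genes in every fit with all 6 lines, also with Control added. With 1 line left out it gave from 0 to 2 genes: SNORD67 and SNORA18 without DKD1, SNORD32A without DKD2 and AKR1C3 without KDM5C-KD1. Leaving out a line leaves its group with 1 library, which is assumed to vary like the other groups. The 3 small RNAs were each listed above 0 in a single library. Same-numbered lines shared a number and, at most, a guide (TRIM11 guide 1 or 2 in DKD and TRIM11-KD, KDM5C guide 2 in DKD2 and KDM5C-KD2), and the correlations of their deviations were 0.44 for DKD and TRIM11-KD, 0.30 for DKD and KDM5C-KD and 0.11 for TRIM11-KD and KDM5C-KD. The numbers were not taken as pairs, and with the replicate number as a block limma also called 0 genes, with 1772 at an unadjusted p under 0.05. Of 71 genes with a ratio (the targets, the ranked genes and the selected list genes), TRIM11 alone changed the sign of its mean log2 ratio. This was 0.36 without DKD2, and below 0 at the other pseudocounts and scalings and without DKD1. Apart from the targets, these genes were selected for lying on the same side of Control in both lines. Their sign could not change with a line left out or a pseudocount, so nothing is read from its stability. Unselected list genes were not among these 71, and those that lay on opposite sides of Control in the 2 lines, such as CXCL8, take their direction from the line kept. The counts of selected genes within the lists stayed within 1.5 times in 675 comparisons with an alternative and moved further in 213. A count of 0 that stayed at 0 was scored as unchanged, and many lists had no selected gene in a direction. Settings stricter than the main one cannot raise a 0, so nothing is read from the 675. Unknown depth limits all genes of low FPKM.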

Other observations

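Cancer-testis antigen genes of the X chromosome, which are normally silent outside the germ line, differed in both directions among 6 analysed. MAGEC2 was at 1.33 FPKM in Control, 7.51 in DKD1 and 52.4 in DKD2, and MAGEC1 at 0.774, 2.38 and 4.65 FPKM. MAGEA6 was at 2.84, 0.123 and 0.141 FPKM, and MAGEA3 at 3.59, 0.887 and 0.138 FPKM. MAGEA3 and MAGEA6 are near-identical copies, so their values are not independent. In KDM5C-KD2, which has the KDM5C guide of both DKD lines, all 4 were high, with MAGEC2 at 22.7, MAGEC1 at 16.04, MAGEA3 at 24.8 and MAGEA6 at 24.3 FPKM. MAGEC2 was equally high in TRIM11-KD2 (22.6 FPKM), which has the TRIM11 guide of DKD2. It was at 1.11 FPKM in TRIM11-KD1 and 3.61 FPKM in KDM5C-KD1.

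Of 10 S100 genes, S100P (3.08 FPKM in Control, 0.385 in DKD1 and 0.333 in DKD2) and S100A5 (3.02, 1.30 and 0.920 FPKM) were lower, and S100A6, the most abundant, was at 3658, 1975 and 1956 FPKM. PSG9, of a placental family with close paralogs, was at 5.79, 1.30 and 1.79 FPKM, and HOXD1 at 2.40, 0.762 and 0.327 FPKM. Of 21 replication-dependent histone genes, HIST1H3H (3.11, 0.217 and 0.752 FPKM) and HIST1H4C (5.02, 2.14 and 1.06 FPKM) were lower. The S100 and histone counts stand beside 1.37% lower of all genes. Histone mRNAs of this kind lack a poly(A) tail, and the libraries were made from poly(A) RNA. Small RNAs made up 4 of the higher and 3 of the lower genes. SNORA61 was at 72.0 FPKM in Control and listed at 0 in both DKD lines, and SNORA70 was listed at 0 in Control and at 39.4 and 112 FPKM in DKD. The part of library preparation in these values was not tested.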
